A study of Mus musculus with 12 samples.

Results

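The diet effect was measured by setting 6 tumors from obese mice against 6 tumors from nonobese mice, which together were all 12 tumors of the series. A tumor entered the comparison by its diet label, and its treatment was an additive factor in the model, so that a gene was called for a shift with diet common to isotype-treated and anti–PD-1–treated tumors. All tumors were B16-F10, a melanoma cell line of C57BL/6 origin, grown under the skin of male C57BL/6J mice. Obese mice had eaten a Western diet supplemented with 0.2% cholesterol for 15 weeks, until their weight had increased by 50%, and nonobese mice had eaten the matching control diet. Within each diet, 3 mice received the anti–PD-1 antibody 29F.1A12 and 3 received its isotype control 2A3, each at 10 mg/kg. The 4 groups shared the cell line, the sex and the strain, and no group was left without an injected antibody. The labels number the tumors of a group as replicates without naming the animals, so P values measure the spread between these tumors. A Western diet changes body fat, circulating lipids and hormones together, so the labels define a diet group and not a single exposure.

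Obesity alters what a tumor meets in its host: lipoproteins, free fatty acids, insulin, leptin and estrogens made by aromatase in adipose tissue. Tumor cells can answer through the sterol-sensing SREBP-2 system, through lipases that release fatty acids and signaling lipids, and through growth factor cascades such as the ERK pathway. Anti–PD-1 blocks an inhibitory receptor of T cells, and an active T cell response releases interferons that raise antigen presentation in the tissue.

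RNA was counted per gene in each tumor, and the totals ranged from 14022929 to 33871843 counts. Total counts averaged 19275500 in obese and 26202200 in nonobese tumors, a difference that did not pass a two-sided exact permutation test with diet labels exchanged within treatment (p = 0.085, 6 tumors per diet). Pmel, the melanosome matrix protein, stood between 6966 and 11066 CPM (counts scaled to the effective library size) in every tumor, so melanocyte lineage transcripts were abundant in all 12. The first principal component of log2 CPM held 37.1% of the variance and did not order the tumors by diet. The third held 11.2% and largely did, with 5 of 6 nonobese tumors at 9.85 to 17.4 and 5 of 6 obese tumors at −25.5 to −6.46, while nonobese anti–PD-1 tumor 3 (−2.06) and obese isotype tumor 1 (14.04) lay apart from their diet. In bulk tissue, fewer cells of a type and less RNA per cell cannot be told apart. The library numbers in the labels are lower in all nonobese than in all obese tumors, so diet and any order of handling cannot be told apart.

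Of 13095 genes tested, 7 rose and 2 fell in obese tumors at an FDR below 0.05 in edgeR's quasi-likelihood test, which is 0.0535% and 0.0153% of the genes. The genes that rose were Mgll, Kcnj13, Tmod1, Samd9l, Nipal3, Gpr37 and Fbxo32, and those that fell were Wipf3 and Ppp1r16b. All 9 had an unadjusted P below 0.05 and the same sign in the isotype contrast and in the anti–PD-1 contrast taken separately, and for all 9 the 6 obese tumors did not overlap the 6 nonobese tumors in CPM. The additive fit on the same 12 tumors favors genes with a common shift and a small spread, so these properties follow largely from the call and are given as a description. DESeq2 called 135 genes on the same counts, these 9 among them. Across all genes tested, 65 (0.496%) lay higher and 74 (0.565%) lower in every obese tumor than in every nonobese tumor.

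Mgll encodes monoacylglycerol lipase, which splits monoacylglycerols, the endocannabinoid 2-arachidonoylglycerol among them, into glycerol and free fatty acid. The gene lies at chr6:88724412-88828360 (GRCm38). In obese tumors its lowest, median and highest levels were 345, 391 and 496 CPM, and in nonobese tumors 120, 155 and 209 CPM. The lowest obese tumor was thus 136 CPM above the highest nonobese tumor. The log2 fold change was 1.36 ± 0.15 (SE, 6 tumors per diet), a 2.58-fold increase (edgeR FDR = 0.00354). Under isotype it was 1.42 ± 0.22 and under anti–PD-1 1.31 ± 0.22.

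Kcnj13, at chr1:87384577-87394729, encodes the inward rectifier potassium channel Kir7.1 and showed the largest fold change of the 9 genes. Its levels were 86.5, 125 and 191 CPM (lowest, median and highest) in obese tumors and 22.9, 37.7 and 49.5 CPM in nonobese tumors. The highest value belonged to an anti–PD-1–treated obese tumor, and the least obese value was still above every nonobese value. Kcnj13 rose 3.47-fold (log2 1.79 ± 0.21, edgeR FDR = 0.00354), with log2 fold changes of 1.55 ± 0.28 under isotype and 2.04 ± 0.29 under anti–PD-1.

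Tmod1, Nipal3 and Gpr37 rose by smaller amounts. Tmod1 (chr4:46038940-46116032) encodes tropomodulin 1, which caps the slow-growing ends of actin filaments. It ranged from 105 to 152 CPM (median 131) in obese and from 71.2 to 88.0 CPM (median 77.5) in nonobese tumors, a 1.65-fold rise (log2 0.72 ± 0.09, edgeR FDR = 0.00388). Nipal3 (chr4:135442805-135494972) belongs to a family of magnesium transporter-like membrane proteins. Its obese tumors lay within 151 to 171 CPM (median 159), a narrow range, and its nonobese tumors within 75.9 to 117 CPM (median 105), with a log2 fold change of 0.67 ± 0.10 (edgeR FDR = 0.0148). Gpr37 (chr6:25668523-25689980) encodes an orphan G protein-coupled receptor known from oligodendrocytes. It ranged from 47.2 to 72.5 CPM (median 52.9) in obese and from 21.6 to 35.1 CPM (median 30.9) in nonobese tumors, with a log2 fold change of 0.93 ± 0.14 (edgeR FDR = 0.0274).

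Samd9l and Fbxo32 completed the genes that rose. Samd9l (chr6:3372257-3399571) is an interferon-inducible gene that restrains cell growth and viral replication. It ranged from 36.9 to 53.2 CPM (median 48.1) in obese tumors and from 23.4 to 32.3 CPM (median 24.9) in nonobese tumors. The 3 obese tumors under anti–PD-1 were higher than the 3 under isotype, yet all 6 exceeded every nonobese tumor, and the log2 fold change was 0.80 ± 0.10 (edgeR FDR = 0.00458). Fbxo32 (chr15:58175879-58214892) encodes atrogin-1, the substrate receptor of a ubiquitin ligase that is best known from wasting skeletal muscle. It ranged from 13.1 to 16.4 CPM (median 14.3) in obese and from 8.23 to 11.4 CPM (median 9.36) in nonobese tumors, with a log2 fold change of 0.63 ± 0.10 (edgeR FDR = 0.0495). The summed level of 18 skeletal muscle genes was spread over 24.5 to 763 CPM in obese and 25.9 to 480 CPM in nonobese tumors, and these ranges overlapped.

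Both genes that fell take part in the actin skeleton or in signaling at the membrane. Wipf3 (chr6:54429218-54503768) encodes a WAS/WASL-interacting protein of actin assembly. It ranged from 26.2 to 37.3 CPM (median 30.6) in obese and from 47.4 to 60.3 CPM (median 51.4) in nonobese tumors, 1.70-fold lower (log2 −0.77 ± 0.09, edgeR FDR = 0.00354). Its log2 fold change was −0.77 ± 0.13 under either treatment, the closest match between treatments among the 9 genes. Ppp1r16b (chr2:158666733-158766334) encodes TIMAP, a regulatory subunit of protein phosphatase 1 that is held at the plasma membrane. It ranged from 34.7 to 45.0 CPM (median 42.0) in obese and from 49.1 to 65.1 CPM (median 61.1) in nonobese tumors, with a log2 fold change of −0.56 ± 0.09 (edgeR FDR = 0.0355).

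**Figure D1:**
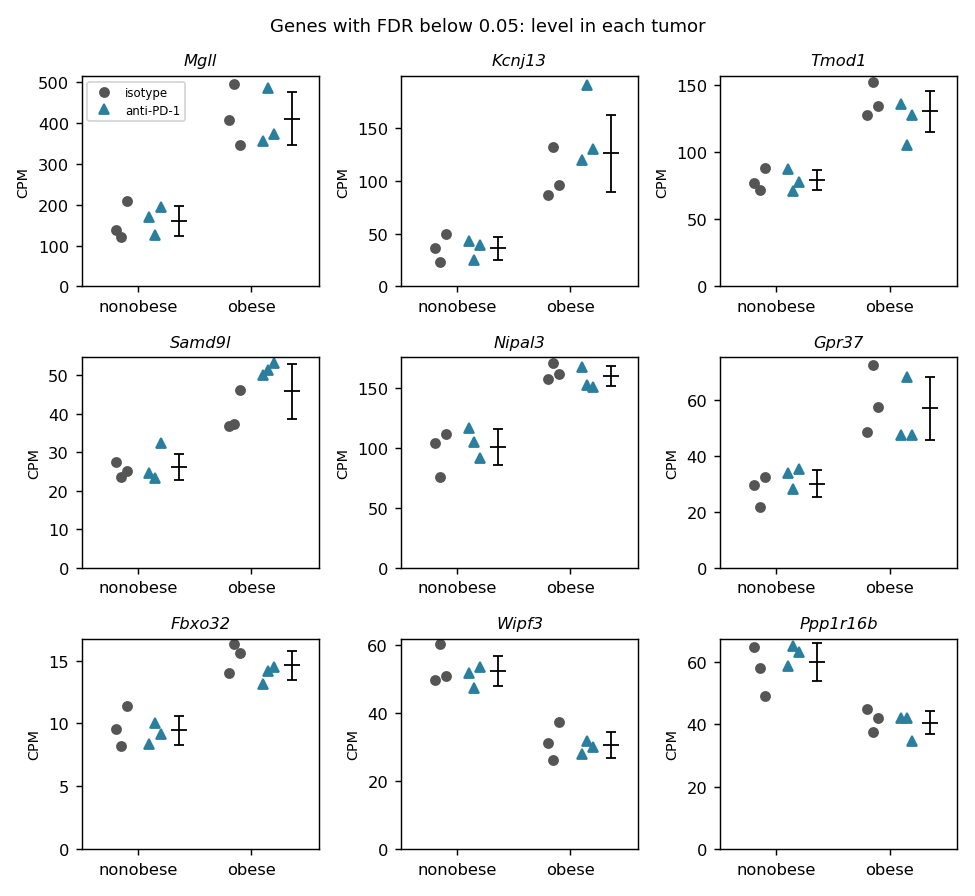
CPM (linear axis from 0) of the 9 genes with an FDR below 0.05 in each of the 12 tumors, nonobese on the left and obese on the right of each panel. Circles are isotype-treated and triangles anti–PD-1–treated tumors, and the bar beside each group is its mean ± SD (n = 6). In every panel the obese and nonobese tumors occupy separate ranges, as for Mgll with 345 to 496 CPM against 120 to 209 CPM.

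The difference between the anti–PD-1 and the isotype contrast was tested for each of the 9 genes. It ran from −0.35 ± 0.27 for Gpr37 to 0.50 ± 0.39 for Kcnj13 on the log2 scale, and its unadjusted edgeR P from 0.153 to 0.991. None of the 9 passed an unadjusted P of 0.05 in this test. The additive fit counts a difference between treatments as residual spread and so selects against it, and differences of the size of these SEs were not detectable with 3 tumors per group. Mgll, Kcnj13, Tmod1, Samd9l and Wipf3 kept an edgeR FDR below 0.05 after the omission of any single tumor. Nipal3 lost it without nonobese isotype tumor 1. Gpr37 lost it without any of the 3 nonobese isotype tumors, nonobese anti–PD-1 tumors 1 or 2, obese isotype tumor 3 or obese anti–PD-1 tumor 2. Ppp1r16b kept it only without nonobese isotype tumor 3, nonobese anti–PD-1 tumor 3 or obese isotype tumor 1, and Fbxo32 only without the first or the second of these.

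The RefSeq promoters (GRCm38.p6, 250 bases before to 50 after the start, written 5′ to 3′ on the gene's strand) were examined for the genes that moved together, and 8 of the 9 had an entry. The letters searched on both strands were the E-box CACGTG, the core CATGTG of the M-box bound by the melanocyte factor MITF, the nuclear receptor core string AGGTCA and the interferon-type string GAAANNGAA. They are held by 7.15%, 14.2%, 16.3% and 8.56% of the 32851 promoters of this length, and they were chosen after the gene values had been seen. Matches of different strings did not overlap in the entries of the called genes. The 4 promoters below belong to Mgll and Kcnj13, the genes with the lowest FDR among those that rose, to Samd9l as the interferon-inducible gene and to Wipf3 as the gene that fell most, with matched letters in capitals. The Mgll entry (chr6:88724162-88724461, plus strand) holds CATGTG 236 bases and CACGTG 44 bases before the start. The Kcnj13 entry (chr1:87394680-87394979, minus strand) holds CACATG, the reverse complement of CATGTG, 112 bases before the start. The Samd9l entry (chr6:3399522-3399821, minus strand) holds GAAACTGAA from position 39 after the start. The Wipf3 entry (chr6:54429436-54429735, plus strand) holds none of the 4 strings. Its bases all lie within the span given above for the gene. The entry thus belongs to a start after the first base of that span.
Mgll: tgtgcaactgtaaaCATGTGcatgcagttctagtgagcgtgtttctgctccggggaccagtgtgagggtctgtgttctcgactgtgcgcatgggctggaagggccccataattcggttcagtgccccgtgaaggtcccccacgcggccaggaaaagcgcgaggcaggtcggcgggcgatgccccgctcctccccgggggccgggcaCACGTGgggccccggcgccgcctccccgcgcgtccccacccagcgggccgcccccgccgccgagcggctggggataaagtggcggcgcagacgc
Kcnj13: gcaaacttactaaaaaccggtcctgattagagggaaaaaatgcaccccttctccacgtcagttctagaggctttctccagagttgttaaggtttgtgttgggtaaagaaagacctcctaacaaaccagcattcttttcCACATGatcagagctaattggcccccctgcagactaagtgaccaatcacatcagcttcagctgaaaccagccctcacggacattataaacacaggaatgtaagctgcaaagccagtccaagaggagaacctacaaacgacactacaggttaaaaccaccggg
Samd9l: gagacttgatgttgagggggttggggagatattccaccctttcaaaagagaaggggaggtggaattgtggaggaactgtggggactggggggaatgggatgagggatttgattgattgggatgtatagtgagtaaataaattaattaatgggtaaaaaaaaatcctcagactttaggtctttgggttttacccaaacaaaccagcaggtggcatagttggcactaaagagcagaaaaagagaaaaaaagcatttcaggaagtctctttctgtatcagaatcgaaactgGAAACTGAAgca
Wipf3: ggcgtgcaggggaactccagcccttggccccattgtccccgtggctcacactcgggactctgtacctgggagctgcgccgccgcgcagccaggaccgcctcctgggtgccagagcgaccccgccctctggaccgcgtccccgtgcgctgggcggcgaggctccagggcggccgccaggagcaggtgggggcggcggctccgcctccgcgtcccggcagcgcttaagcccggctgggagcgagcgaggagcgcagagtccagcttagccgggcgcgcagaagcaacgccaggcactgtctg
The other 7 entries of the called genes, which include a second Mgll entry, hold none of the 4 strings. A match is a description of letters and was not tested for binding.

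Below the threshold came 8 genes with an edgeR FDR between 0.05 and 0.1, which are named here after their values were seen. The 5 with positive log2 fold changes were Kctd12 (0.56 ± 0.10, FDR = 0.0577), Adamts1 (0.68 ± 0.12, FDR = 0.0629), Tmem140 (1.06 ± 0.19, FDR = 0.0699), Phyhipl (1.48 ± 0.27, FDR = 0.0699) and Ano3 (0.49 ± 0.09, FDR = 0.0921). Kctd12 encodes an auxiliary subunit of GABA-B receptors, and Adamts1 a secreted protease that cleaves proteoglycans. The 3 with negative values were Azi1 (−0.49 ± 0.09, FDR = 0.0699), the former symbol of the centrosomal gene Cep131, 4930427A07Rik (−0.43 ± 0.08, FDR = 0.0699) and the metalloprotease gene Adam12 (−0.61 ± 0.11, FDR = 0.0891). All 8 had an unadjusted P below 0.05 and 1 sign in both treatments, and 7 of them did not overlap between diets, Phyhipl being the exception. Over all genes tested, 0.382% were higher and 0.458% lower in both treatments by the first measure. By the second, 0.496% were higher and 0.565% lower. The 8 genes were picked by the additive fit on the same tumors, so these properties follow largely from that choice.

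A threshold on size, more than 2-fold with unadjusted edgeR P below 0.05, was passed by 31 genes in the higher direction (0.237%) and by 16 in the lower direction (0.122%). With 1 tumor left out these counts ran from 26 to 63 higher and from 12 to 50 lower. Without nonobese isotype tumor 2 they were 63 and 12, whereas lower genes outnumbered higher ones without obese isotype tumor 1 (44 higher and 50 lower), nonobese anti–PD-1 tumor 1 (33 and 44) or obese anti–PD-1 tumor 3 (26 and 32). A filter of at least 1 count gave 96 and 82, and one of at least 10 counts in every tumor 11 and 2. Among them, Angptl4, a fasting-induced inhibitor of lipoprotein lipase, ranged from 8.46 to 19.6 CPM in obese and from 3.79 to 7.37 CPM in nonobese tumors. Its groups did not overlap, and its log2 fold change was 1.21 ± 0.24 (edgeR FDR = 0.111), with 0.74 ± 0.28 under isotype and 1.69 ± 0.28 under anti–PD-1. Most of the lower genes taken by the naming rule were near the detection limit. Gulo, the enzyme that ends vitamin C synthesis, had a log2 fold change of −1.61 ± 0.47 at no more than 1.98 CPM in any tumor, and Gm129, the former symbol of the clock repressor gene Ciart, of −1.17 ± 0.34 at no more than 2.09 CPM. Ikzf3, a transcription factor of lymphocytes, had 2.03 ± 0.56 with 0.21 to 1.52 CPM in obese and 0.0446 to 0.193 CPM in nonobese tumors, and its value was 0.89 ± 0.68 under isotype and 3.17 ± 0.68 under anti–PD-1. A level of 3 counts equals 0.0881 CPM in nonobese isotype tumor 2 and 0.211 CPM in obese anti–PD-1 tumor 1. The nonobese values of Ikzf3 and its lowest obese value thus rest on few counts.

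Among genes past an unadjusted threshold in both contrasts, those with opposite signs outnumbered those with the same sign. That difference in number was not tested. With an unadjusted edgeR P below 0.05 in each contrast, 50 genes (0.382%) were higher and 60 (0.458%) lower in both, and 128 (0.977%) had opposite signs. Of these 128, 106 were lower in obese tumors under isotype and higher under anti–PD-1, and 22 were the reverse. The sign was the same in 46.9% of all 13095 genes. Across genes, which are not independent replicates, Pearson's r between the contrasts was −0.364 and Spearman's rho −0.144. Of the 147 genes more than 2-fold lower in obese isotype-treated tumors with P below 0.05, 29 were also lower under anti–PD-1. Of the 32 genes more than 2-fold higher under isotype, 22 were also higher under anti–PD-1. Of the 483 genes more than 2-fold higher in obese anti–PD-1–treated tumors, 53 were also higher under isotype, and of the 74 more than 2-fold lower, 26 were also lower. Of all genes tested, 46.9% had a value above 0 in the anti–PD-1 contrast and 52.1% in the isotype contrast. A test of the difference between contrasts gave 0 genes at an edgeR FDR below 0.05 (lowest 0.0596) and 1687 (12.9%) at an unadjusted P below 0.05.

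**Figure D2:**
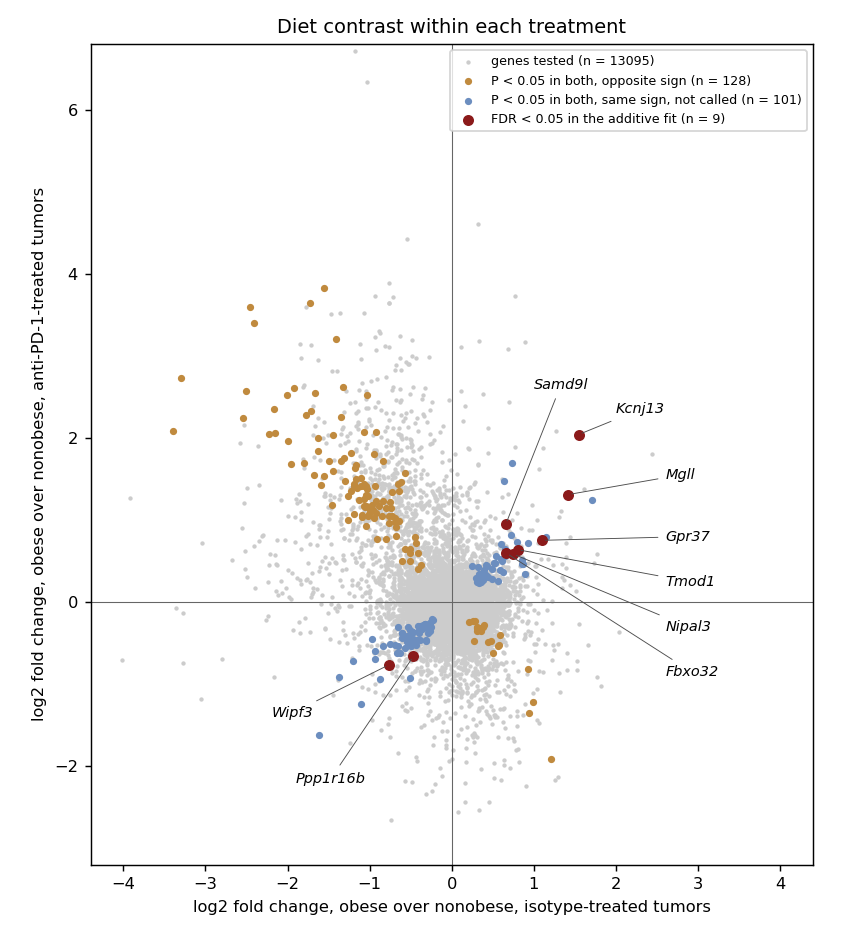
Log2 fold change of obese over nonobese in isotype-treated tumors (horizontal axis) and in anti–PD-1–treated tumors (vertical axis) for 13095 genes, each axis from 3 against 3 tumors. The 9 genes with an FDR below 0.05 lie in the quadrants of equal sign, whereas 106 of the 128 genes with P below 0.05 in both contrasts and opposite signs lie at the upper left.

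The 110 genes with an unadjusted P below 0.05 and the same sign in both treatments held 27 higher and 33 lower genes whose 6 obese and 6 nonobese tumors did not overlap. Over all genes tested, 65 (0.496%) higher and 74 (0.565%) lower genes did not overlap. The 110 were picked by P on the same tumors, which favors such genes. The median additive log2 fold change was 0.53 among the 50 higher and −0.45 among the 60 lower genes. Some of them, picked after their values were seen, illustrate the range. Mbp, a myelin gene that glial and melanocytic cells can share, ranged from 150 to 215 CPM in obese and from 108 to 147 CPM in nonobese tumors (log2 0.50 ± 0.10). Smpd1, which encodes the lysosomal acid sphingomyelinase, ranged from 273 to 341 CPM against 216 to 265 CPM (0.30 ± 0.07). Dusp10, a phosphatase of the stress kinases p38 and JNK, ranged from 4.62 to 6.77 CPM against 2.12 to 3.41 CPM (0.83 ± 0.17). None of these 3 overlapped between diets, but their edgeR FDR was 0.139, 0.197 and 0.154. Rarb, a retinoic acid receptor (0.66 ± 0.14), and Nfkbia, the inhibitor of NF-κB (0.37 ± 0.11), were higher with overlapping groups. Lrp8, a receptor for apolipoprotein E and reelin, had −0.48 ± 0.10, with 44.3 to 63.2 CPM in obese and 61.0 to 84.4 CPM in nonobese tumors.

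Gene lists were described by the number of members past a threshold and by their median, beside the values over all genes. Over all 13095 genes, 583 (4.45%) were higher and 626 (4.78%) lower at an unadjusted P below 0.05, and the median log2 fold change was 0.00 (0.01 under isotype and −0.01 under anti–PD-1). Mgll was the only member of any of the 39 lists with an FDR below 0.05. Genes of the melanocyte lineage had a small positive median and more higher than lower members. Of 20 genes of pigmentation and melanocyte lineage, 6 were higher and 1 lower at P below 0.05, with a median of 0.10 (0.13 under each treatment). They included Oca2, a melanosomal channel gene (0.28 ± 0.11), the melanocyte cation channel gene Trpm1 (0.26 ± 0.12) and, as the lower gene, the lineage factor Sox10 (−0.32 ± 0.10), none of which passed the FDR threshold. Pmel had 0.12 ± 0.11.

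Among 21 targets and feedback genes of the ERK pathway, 6 were lower and 2 higher at P below 0.05, and the median was −0.02. The lower genes included the transcription factors Etv4 and Etv5 and the phosphatase gene Dusp4. Etv4 ranged from 3.34 to 4.70 CPM in obese and from 3.21 to 10.3 CPM in nonobese tumors, so that the groups overlapped. Its log2 fold change was −0.93 ± 0.23 (edgeR FDR = 0.201), with −1.38 ± 0.28 under isotype and −0.48 ± 0.28 under anti–PD-1. Etv5 had −0.54 ± 0.16 and Dusp4 −0.26 ± 0.08, whereas the feedback inhibitor gene Spry2 had 0.24 ± 0.11. None of these passed the FDR threshold.

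Lipid genes were described in 5 lists of synthesis, uptake, efflux and breakdown. Of 24 genes of cholesterol synthesis and SREBP-2 targets, 5 were lower and 0 higher at P below 0.05, with a median of −0.07 (−0.05 under isotype and −0.13 under anti–PD-1). Fasn, the fatty acid synthase gene, ranged from 543 to 1064 CPM in obese and from 1065 to 1299.8 CPM in nonobese tumors. The ranges met without overlapping, and the log2 fold change of −0.38 ± 0.14 had an edgeR FDR of 0.432. The other 14 genes of fatty acid synthesis had P above 0.05, and the list's median was −0.05 (−0.12 under isotype and 0.01 under anti–PD-1). Of 12 genes of cholesterol efflux and LXR targets, 2 were higher and 0 lower, with a median of 0.11 (−0.20 under isotype and 0.23 under anti–PD-1), and Abca1, which exports cholesterol, had 0.60 ± 0.21. Of 20 genes of fatty acid uptake, oxidation and PPAR targets, 3 were higher and 1 lower, with a median of 0.09 (−0.03 under isotype and 0.12 under anti–PD-1). The lower one was Ppara, the nuclear receptor that drives fatty acid oxidation genes, at −0.67 ± 0.27, named after its value was seen. Cd36, which takes up fatty acids, had 0.55 ± 0.23, with −0.09 ± 0.22 under isotype and 1.18 ± 0.22 under anti–PD-1. Of 15 lipase and endocannabinoid genes, with a median of 0.13 (0.07 under isotype and 0.21 under anti–PD-1), 3 were higher and 0 lower at P below 0.05: Mgll, Abhd12, another monoacylglycerol hydrolase (0.27 ± 0.08), and Lipa, the lysosomal acid lipase (0.16 ± 0.06). The last pair did not pass the FDR threshold. Without obese anti–PD-1 tumor 3 the additive median of this lipase list moved toward 0 by more than the spread between tumors.

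Genes of ribosome biogenesis had 8 of 23 members lower and 0 higher at P below 0.05, with a median of −0.15 (−0.25 under isotype and −0.04 under anti–PD-1), and of −0.09 without obese isotype tumor 2. Among them, Ubtf, a factor of RNA polymerase I, had −0.17 ± 0.08 and Nop56, a component of small nucleolar ribonucleoproteins, −0.21 ± 0.08. The 28 cytosolic ribosomal protein genes and the 32 genes of oxidative phosphorylation had 0 members past this threshold in either direction, with medians of 0.01 and 0.05.

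Stress and secretory genes passed the unadjusted threshold mostly within 1 treatment. Over all genes, 931 (7.11%) were higher under isotype and 597 (4.56%) lower under anti–PD-1 at P below 0.05. Of 18 genes of the unfolded protein response, 2 were higher in the additive fit, while 11 were higher under isotype and 0 under anti–PD-1 at P below 0.05 (medians 0.27 and −0.09). Of 24 genes of ER-to-Golgi transport, 0 passed in the additive fit and 8 were higher under isotype (medians 0.20 and −0.02). Of 25 genes of the amino acid and integrated stress response, which ATF4 drives, 1 was lower in the additive fit and 9 were lower under anti–PD-1 (medians −0.04 under isotype and −0.31 under anti–PD-1). Of 26 genes of glycolysis and hypoxia, 2 were lower, with a median of −0.09 (−0.24 under isotype and 0.06 under anti–PD-1). Of 20 genes of insulin, IGF and leptin signaling, 1 was higher and 0 lower at P below 0.05, 4 of the 20 had a value above 0, and the median was −0.13 (−0.20 under isotype and −0.08 under anti–PD-1). Of 25 genes of the cell cycle and DNA replication, 1 was higher, with a median of 0.04.

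The list with the highest share of members past the unadjusted threshold was that of type I interferon-stimulated genes, with 16 of 27 higher and 0 lower at P below 0.05 and a median of 0.68. The median was 0.06 under isotype and 1.30 under anti–PD-1. In the test of the difference between contrasts, where 12.9% of all genes had P below 0.05, 21 of the 27 did. Their summed level ranged from 484 to 593 CPM in obese and from 485 to 580 CPM in nonobese isotype-treated tumors, and from 635 to 1244 CPM and 374 to 502 CPM under anti–PD-1. The groups thus overlapped under isotype and not under anti–PD-1. Ifit1 had an additive log2 fold change of 1.13 ± 0.24 (edgeR FDR = 0.156), with 0.44 ± 0.21 under isotype and 1.81 ± 0.22 under anti–PD-1. Ifit3 had 0.16 ± 0.22 under isotype and 2.38 ± 0.23 under anti–PD-1, and Rsad2 0.21 ± 0.15 and 1.39 ± 0.15. Ifit2 alone of the 27 had P below 0.05 and the same sign in both, with 0.32 ± 0.12 and 0.43 ± 0.12. Bst2, a membrane tether of enveloped viruses, had −0.15 ± 0.18 and 1.12 ± 0.19. In a model of 4 group means, whose residuals leave out the difference between contrasts, 5 of the 27 passed an edgeR FDR of 0.05 for the mean of both contrasts, Ifit1, Ifit3 and Rsad2 among them, and 24 genes passed in all.

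Antigen presentation genes shared this contrast between treatments. Of 16 genes of MHC class I loading and the immunoproteasome, 4 were higher at P below 0.05, with a median of 0.45 (−0.21 under isotype and 1.14 under anti–PD-1). B2m, the light chain of MHC class I, had 0.05 ± 0.21 under isotype and 1.32 ± 0.21 under anti–PD-1, and the heavy chain gene H2-D1 had −0.11 ± 0.21 and 1.10 ± 0.21. The chaperone genes Calr and Pdia3 had positive values mainly under isotype, with 0.29 ± 0.10 and 0.42 ± 0.11, against 0.08 ± 0.10 and 0.02 ± 0.11 under anti–PD-1. The summed level of this list, to which Calr and Pdia3 contribute most, was 3395 to 5000 CPM in obese and 2910 to 3353 CPM in nonobese tumors. MHC class II genes had a median of 0.73, from −0.50 under isotype and 2.05 under anti–PD-1, and 0 of 10 had the same sign in both. H2-DMb1, a subunit of the peptide exchange factor, was the only one with additive P below 0.05 (0.51 ± 0.24).

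**Figure D3:**
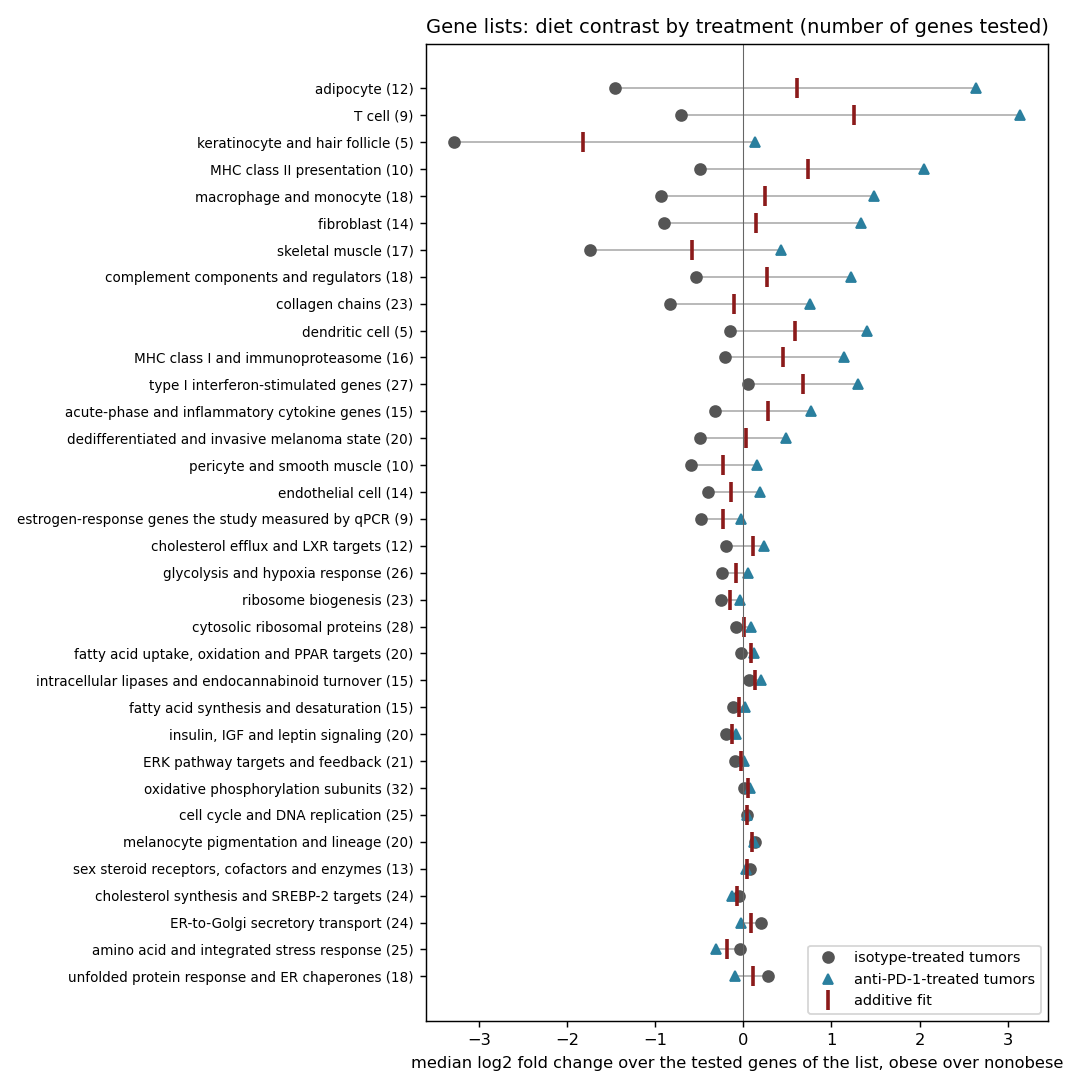
Median log2 fold change of obese over nonobese over the tested genes of each list (number in brackets, lists of 5 or more), for isotype-treated tumors (circles), anti–PD-1–treated tumors (triangles) and the additive fit (vertical marks). Lists of immune and connective tissue lie apart between treatments, such as T cell markers at −0.71 and 3.14, while melanocyte genes lie together at 0.13.

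Markers of the other cell types a tumor can hold mostly had values of opposite sign under the treatments, and few passed in the additive fit. Of 119 tested marker genes in 14 lists, 1 was higher (Cd3g, a T cell receptor chain, 2.83 ± 0.92) and 1 lower at an additive P below 0.05. Among the 110 genes with P below 0.05 and the same sign in both treatments, 0 were markers. The sign differed between the treatments in 100 of the 119, while over all genes it was the same in 46.9%. Of the 119, 29 were lower at P below 0.05 under isotype, where 808 of all genes (6.17%) were, and 44 were higher under anti–PD-1, where 748 (5.71%) were. Not every list took part: NK cell, B cell, neutrophil, dendritic cell and red blood cell markers had 0 members lower under isotype, and skeletal muscle, keratinocyte, mast cell, pericyte, neutrophil and red blood cell markers had 0 higher under anti–PD-1. T cell markers had a median of −0.71 under isotype and 3.14 under anti–PD-1, and adipocyte markers of −1.46 and 2.64. Macrophage and monocyte markers had −0.93 and 1.49. For the difference between contrasts, 17 of the 18 had P below 0.05, against 12.9% of all genes. Under anti–PD-1 the summed levels of obese and nonobese tumors did not overlap, with 9.23 to 23.2 against 5.49 to 6.89 CPM for T cell markers, 231 to 439 against 129 to 189 CPM for macrophage and monocyte markers and 62.6 to 166 against 20.8 to 46.3 CPM for adipocyte markers. Cd8a, which marks cytotoxic T cells, had −0.71 ± 0.77 under isotype and 3.72 ± 0.76 under anti–PD-1. Fabp4, a fatty acid carrier of adipocytes and macrophages, had −0.24 ± 0.24 and 1.35 ± 0.24, and Lyz2, the myeloid lysozyme, −0.43 ± 0.32 and 0.97 ± 0.32. The expression filter can pass a gene with enough counts in 1 group of 3 tumors, so a scarce marker can enter through the group where it is high. Only 9 of 15 T cell and 4 of 10 NK cell markers were tested. Up to 6 T cell markers had 0 counts in a nonobese tumor. The marker counts and medians are thus given as a description.

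Connective tissue and muscle genes varied widely within each diet. Col1a1, a chain of type I collagen, ranged from 47.4 to 707 CPM in obese and from 108 to 1071 CPM in nonobese tumors, and its additive log2 fold change of −0.01 ± 0.71 combined −1.55 ± 0.68 under isotype with 1.54 ± 0.68 under anti–PD-1. Acta1, the skeletal muscle actin gene, ranged from 3.53 to 183 CPM and from 1.27 to 120 CPM, with −0.72 ± 1.11. This value was −0.27 without obese isotype tumor 1 and −1.32 without obese anti–PD-1 tumor 3. The 9 genes with an FDR below 0.05 are in none of the 14 marker lists. The part of immune, adipose and muscle content in the diet differences, those of these 9 genes included, was not tested.

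**Figure D4:**
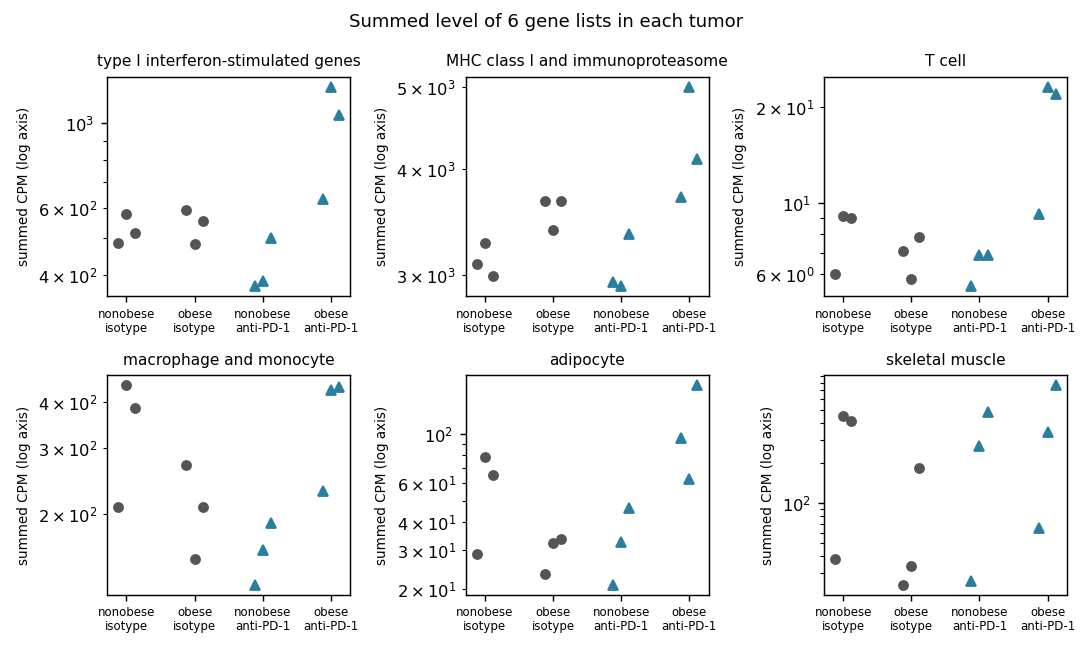
Summed CPM (log axes) of 6 gene lists in each tumor, with circles for isotype-treated and triangles for anti–PD-1–treated tumors and 3 tumors in each of the 4 groups. T cell markers reach 9.23 to 23.2 CPM in obese anti–PD-1–treated tumors and stay at or below 9.14 CPM in the other 3 groups, while skeletal muscle genes spread from 24.5 to 763 CPM.

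The study asked how obesity affects tumors and their response to anti–PD-1, and went on to estrogens as a candidate factor. Transcripts of estrogen receptors and of aromatase were scarce in these tumors. Esr1, which encodes estrogen receptor α, had 30 to 113 counts per tumor and a log2 fold change of 0.18 ± 0.20 (edgeR FDR = 0.832). Esr2 had at most 2 counts in a tumor, and Cyp19a1, the aromatase gene, at most 1. The membrane receptor gene Gper1, listed as Gpr30, had 0 to 17 counts. These 3 genes were not tested, and at this depth a diet difference in them was not detectable.

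A list of 9 estrogen-response genes was taken from the qPCR panel of the study. The panel was chosen on the isotype-treated tumors analyzed here, so its direction under isotype is not independent evidence. Of the 9 genes, 4 were lower and 0 higher at an unadjusted P below 0.05, and 0 passed an FDR of 0.05 in edgeR. Only Rps6ka2 passed it in DESeq2. Their median was −0.23, from −0.48 under isotype and −0.02 under anti–PD-1. Rps6ka2, a kinase of the RSK family downstream of ERK, had −0.49 ± 0.16 under isotype and −0.54 ± 0.16 under anti–PD-1. It ranged from 23.4 to 36.9 CPM in obese and from 35.7 to 46.4 CPM in nonobese tumors, and was the only one of the 9 with P below 0.05 in both treatments (additive edgeR FDR = 0.156). Ccnd1, the cyclin D1 gene, had −0.27 ± 0.13 and −0.26 ± 0.13, and Ckb, brain-type creatine kinase, −0.26 ± 0.12 and −0.21 ± 0.12. Mest, Dcxr and Kcnk5 had negative values under isotype, from −0.77 to −0.48, and positive values under anti–PD-1, from 0.12 to 0.24. Farp1 and Tiam1 were near 0 under anti–PD-1, at −0.08 ± 0.15 and −0.02 ± 0.11.

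**Figure D5:**
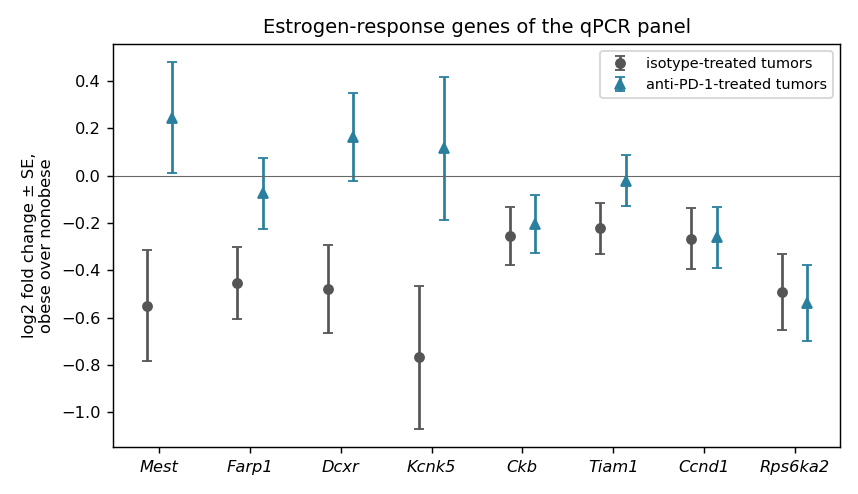
Log2 fold change ± SE of obese over nonobese for 8 of the 9 estrogen-response genes of the qPCR panel, in isotype-treated tumors (circles) and anti–PD-1–treated tumors (triangles), 3 against 3 tumors each. All 8 circles lie below 0. Rps6ka2, Ccnd1 and Ckb have nearly equal values in both treatments, as −0.49 and −0.54 for Rps6ka2, while the triangles of Mest, Dcxr and Kcnk5 lie above 0.

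Other genes, known from earlier results of these data, differed in how far the isotype difference held under anti–PD-1. Car6, a secreted carbonic anhydrase, had −0.97 ± 0.18 under isotype and −0.45 ± 0.17 under anti–PD-1, both with P below 0.05 and an additive edgeR FDR of 0.116. Cnnm1, of a family linked to metal ion transport, had −1.48 ± 0.27 and −0.44 ± 0.26. Slc17a9, the vesicular nucleotide transporter, had 0.94 ± 0.31 under isotype and −1.35 ± 0.32 under anti–PD-1, so that its additive value was −0.18 ± 0.39. Gpt2, the mitochondrial alanine aminotransferase, had 0.58 ± 0.14 and −0.52 ± 0.15 in the same order, with an additive value of 0.03 ± 0.18.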

How the data were processed

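RNA from 12 subcutaneous B16-F10 tumors was prepared by the authors with a stranded poly(A) kit and sequenced. According to the submitters' processing notes, FastQC 0.11.5, STAR 2.7.0f, HTSeq 0.9.1, edgeR 3.28.1 and the mm10 build were used. The authors deposited raw gene counts in 1 table, and their strand setting and gene annotation are not given in the sources used here. All 12 columns were matched to tumors by name, and 0 columns were left over. Of 23420 genes, 17519 had at least 1 count and 13095 passed filterByExpr.

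The counts were tested here in R 4.3.3 with edgeR 4.0.16 (TMM scaling, the legacy form of glmQLFit, glmQLFTest and Benjamini-Hochberg adjustment over all genes tested), with diet and treatment as additive terms. A fit of 4 group means gave the diet contrast within each treatment and the difference of these contrasts. SEs were derived from the quasi-likelihood F statistics. Log2 CPM used a prior count of 2. The alternatives were DESeq2 1.42.0, another scaling, other filters, models and priors, a replicate block, single treatments and the omission of each tumor.

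The members of the comparison and the gene lists were chosen with earlier results of these data known. Up to 12 genes per direction with an FDR below 0.05 were named, filled by P from genes changed more than 2-fold with P below 0.05 and equal sign in both treatments. For each list up to 4 members with an FDR below 0.05 were named, or the tested pair with the highest mean CPM, together with the qPCR panel, the hormone receptors and a few genes known from earlier results of these data. Some genes that this rule takes are not reported here. The genes with an FDR between 0.05 and 0.1, and the list members and genes of equal direction given with P below 0.05, were chosen after their values had been seen. In simulated counts with 50 changed genes per fold size, the additive fit of 6 against 6 tumors, run on 12979 genes, recovered 50% of genes changed 1.5-fold, 72% at 2-fold, 88% at 4-fold and 98% at 8-fold, and called 3 unchanged genes. Correlations between tumors of a group ranged from 0.963 to 0.991, and 0 columns were identical. Reads carried no molecular identifiers, so 3 counts, taken as the floor, cover counting error only. Symbols, positions and promoters came from RefSeq (GRCm38.p6).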

Additional observations from a re-analysis of the deposited data

Results flagged for a closer look

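Among 236 sets of 6 tumors of 1 diet, 10 held a tumor that stood apart from the other 5 by Dixon's criterion, and chance alone flags about 1 set in 20. Values are log2 CPM. Obese isotype tumor 2 was low for Azi1 (4.87 against 5.32 to 5.41) and for the mean of the fatty acid synthesis list (6.67 against 6.92 to 6.95). Nonobese anti–PD-1 tumor 3 was low for Etv5 (5.26 against 5.84 to 6.14) and Farp1 (5.95 against 6.52 to 6.58) and high for Gm15708 (0.87 against −0.84 to −0.38). Nonobese isotype tumor 3 was low for Gm129 (0.29 against 0.84 to 1.12), and nonobese isotype tumor 1 was low for Dusp10 (1.14 against 1.72 to 1.81). Obese isotype tumor 1 was high for Rps6ka2 (5.21 against 4.56 to 4.80). The keratinocyte list stood at 2.74 in nonobese isotype tumor 2 against −1.46 to 0.06, and the B cell list at 1.33 in obese anti–PD-1 tumor 3 against −0.44 to −0.19.

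The diets separated in opposite directions under the 2 treatments, with no overlap of 3 against 3 tumors in either, for 2 genes and 1 list. Only named genes and the 39 lists were searched, and the share over all genes tested was not counted. Both genes had been named because they were known from earlier results of these data, so their separation follows in part from that choice. For Slc17a9 the log2 CPM difference was 0.97 under isotype and −1.31 under anti–PD-1, a gap of −2.27 (edgeR FDR = 0.107 for the difference of contrasts). For Gpt2 it was 0.59 and −0.50, a gap of −1.09 (edgeR FDR = 0.106). For the mean of the MHC class I and immunoproteasome list it was −0.29 and 1.25, a gap of 1.53 that was not tested. By summed CPM, in which abundant members weigh most, this list was higher in obese tumors under isotype too (3395 to 3666 against 2995 to 3272 CPM), so its isotype direction depends on the summary.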

How the results depend on the processing

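The additive fit gave 7 higher and 2 lower genes at an FDR below 0.05, 31 and 16 at a 2-fold change with P below 0.05, and 9 called genes that held in both treatments. Mgll, Kcnj13, Tmod1, Samd9l and Wipf3 passed the FDR in 21 of 23 alternatives, Nipal3 in 20, Gpr37 in 13, Ppp1r16b in 11 and Fbxo32 in 7, and none of the 9 changed sign. DESeq2 called 74 higher and 61 lower genes, 95 of them held. With 4 group means, 20 were higher and 4 lower, and 47 were more than 2-fold higher. Without the treatment term, 4 were lower and 67 more than 2-fold higher. The current form of glmQLFit gave 64 genes more than 2-fold higher. A filter of at least 1 count gave 96 higher and 82 lower at 2-fold, and one of 10 counts in every tumor 11 and 2. Both filters and RLE scaling lost Fbxo32. Either treatment alone gave 0 higher and 0 lower genes at the edgeR FDR, with 1761 genes at unadjusted P below 0.05 under isotype and 1064 under anti–PD-1. At 2-fold, 174 were lower under isotype, and 413 were higher and 44 lower under anti–PD-1. The cause of these shifts was not tested, beyond the fewer tumors or other genes entered.

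Same-numbered tumors of different groups correlated at a mean of 0.133 over 18 pairs (from −0.264 to 0.563). Tumors of different number correlated at a mean of −0.0623 over 36 pairs (from −0.555 to 0.447). These ranges overlapped, and no label ties a number to a shared batch, so the numbers were not taken as pairs. A replicate block left 5 higher genes and 1 lower gene at the FDR, without Fbxo32, Gpr37 and Ppp1r16b, and Col1a1 stood at 0.12.

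With 1 tumor omitted, the higher genes at the FDR numbered 4 to 12, the lower 1 to 7, those more than 2-fold higher 26 to 63 and lower 12 to 50, and those held 5 to 19. The lowest FDR counts came without nonobese isotype tumor 1 (4 higher, 5 held) and the highest without nonobese anti–PD-1 tumor 3 (12 higher, 7 lower, 19 held). More than 2-fold higher genes numbered 63 without nonobese isotype tumor 2 and 56 without obese isotype tumor 2. More than 2-fold lower genes numbered 50 without obese isotype tumor 1, 44 without nonobese anti–PD-1 tumor 1, 34 without nonobese isotype tumor 1 and 26, 25 and 32 without obese anti–PD-1 tumors 1, 2 and 3. The log2 fold change of Col1a1 ran from −0.39 to 0.47, of Gpt2 from −0.087 to 0.14 and of Slc17a9 from −0.44 to 0.034. Among the other genes without a call, Acta1 ran from −1.32 to −0.27, Lyz2 from 0.038 to 0.45, Mest from −0.28 to −0.027, Dcxr from −0.27 to −0.091, Kcnk5 from −0.47 to −0.21, Esr1 from 0.069 to 0.28 and Pmel from 0.062 to 0.18. The library size difference stayed on its side of the threshold. List medians moved by more than the spread between tumors in 44 cases outside the omission of tumors, all but 2 of them (T cell 0.14 and keratinocyte −0.17, with 10 counts in every tumor) within a single treatment, and in 5 cases within it: keratinocyte without nonobese isotype tumor 2 (toward 0) and without obese anti–PD-1 tumor 2 (away from 0), dendritic cell at 0.10 and lipases at 0.067 without obese anti–PD-1 tumor 3, and ribosome biogenesis at −0.091 without obese isotype tumor 2.

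Under isotype alone the sign turned for Bst2 (−0.17), H2-D1 (−0.14), H2-DMb1 (−0.19), Lyz2 (−0.46), Fabp4 (−0.26), Cd36 (−0.12), Pmel (−0.088), Esr1 (−0.073) and Slc17a9 (0.91). Under anti–PD-1 alone it turned for Col1a1 (1.55), Acta1 (0.80), Gpt2 (−0.51), Mest (0.25), Dcxr (0.17) and Kcnk5 (0.13). Among all named genes, 24 calls were lost and 42 gained outside the omission of tumors, and 27 and 10 within it. Depth limits genes near 1 CPM, where a tumor holds few counts.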
